A study of Mus musculus with 6 samples.

Results

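The 42 collagen chain genes on the array were compared between mammary glands of 10-week-old and 5-week-old mice. They were chosen by name, as every probe set whose single gene symbol reads Col, a number, the letter a and a number, which gave 82 probe sets. For each gene the probe set with the highest mean over all pools was used, out of 18193 genes with a single symbol on the array. By type, 11 genes were fibrillar, 6 belonged to basement membrane collagen IV, 9 were FACIT chains (fibril-associated collagens with interrupted triple helices) and 16 were of other types.

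All animals were females that carried 2 transgenes, bred from LH mice (the labels do not spell the name out) and MMTV-neu mice. In MMTV-neu mice the neu (Erbb2) oncogene is under the control of the mouse mammary tumour virus promoter. Both ages therefore carried both transgenes, and no mice without them were analysed here. For each age, 3 pools of RNA from 3 animals apiece were hybridised, 1 pool to an array, so 9 animals stood behind an age. The labels name the tissue as mammary gland with no sorting of cells, and all 8 luminal and all 8 myoepithelial markers looked up passed the filter on low signals.

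Collagen chains wind in threes into a triple helix that is secreted and built into the extracellular matrix. Fibrillar collagens form the tensile fibres of the stroma, collagen IV forms the sheet on which epithelium, fat cells and vessels rest, FACIT chains sit on fibril surfaces, and other types form beaded filaments, anchoring fibrils or cell surface proteins. In the mammary gland, fibroblasts make most of the fibrillar collagen, and ducts grow through the fat pad during puberty within a collagen-rich stroma and a collagen IV basement membrane.

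Collagen chains were mostly lower at 10 weeks. Of the 42 genes, 32 passed a filter that removed the dimmest 40% of probe sets by mean log2 signal. Of these, 21 fell and 2 rose at an adjusted p of 0.05 (limma). Among all 13002 genes tested, 18.7% were called lower and 15.3% higher. Col9a1 was called higher in each alternative setting tried, while the other, Col4a3, was not. The median log2 difference, 10 weeks minus 5 weeks, was -0.78 over the 32 collagen genes and 0.00 over all genes tested, on the log2(signal + 32) scale that every log2 difference here refers to. Of these 32, Col9a2, Col9a3 and Col26a1 had a mean under the filter at 1 of the ages, so Col9a3 and Col26a1, which were called, passed the filter only through the age at which they were high. With no filter, 22 of all 42 were lower, 1 was higher and 19 did not pass, against 12.3% and 10.2% of all genes. In 26 of the 42 genes all 3 pools at 10 weeks lay below all 3 at 5 weeks, and in 5 they lay above, where 21.2% and 21.0% of all genes did so.

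**Figure D1:**
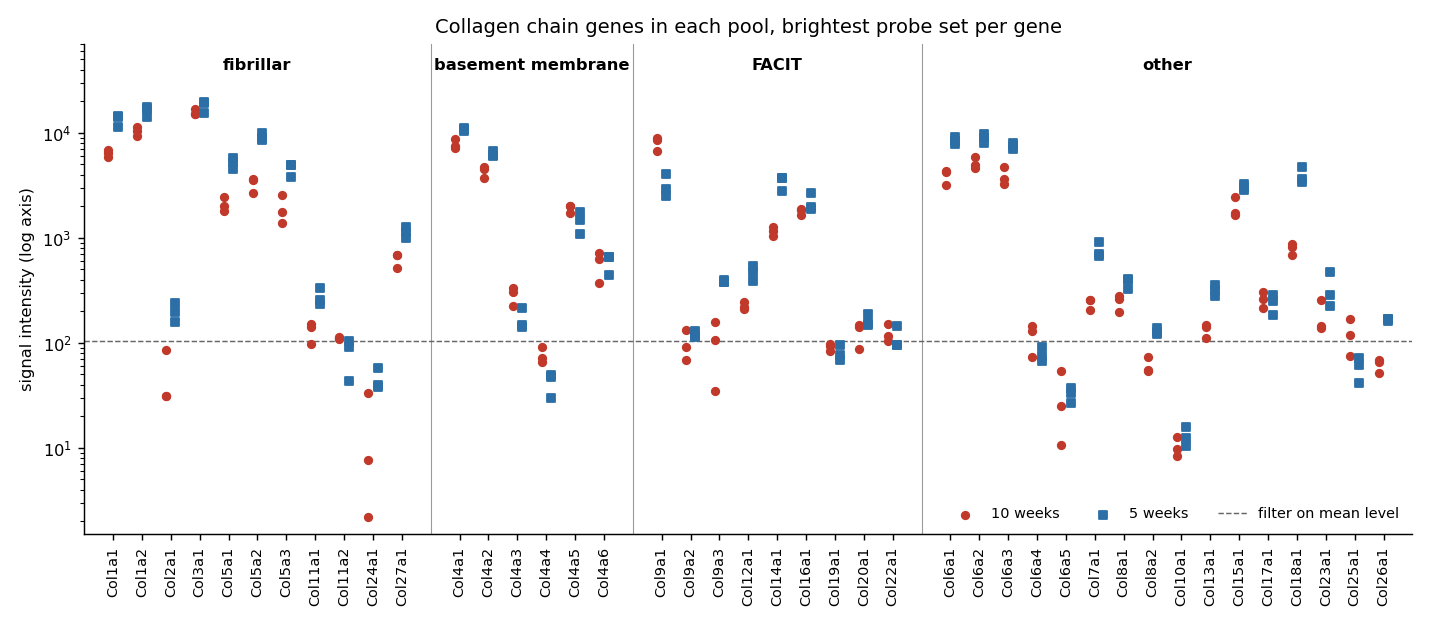
Signal intensity (log axis) of the brightest probe set of each of the 42 collagen genes, by type, with 1 point per pool at 10 weeks (circles) and at 5 weeks (squares). The dashed line marks the level that the mean had to exceed. In 26 genes the 10-week pools lie entirely below the 5-week pools, and in 5 entirely above.

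The chains fell together with other stromal genes, and the glands' RNA makeup differed between the ages in several ways. In bulk tissue, fewer cells of a type, less RNA per cell and more RNA from other cell types cannot be told apart. The arrays were apparently scaled to a common trimmed mean, so each signal is relative to the rest of the RNA. Of all genes tested, 18.7% were called lower and 15.3% higher, the shares to set beside the counts of markers. Of 10 fibroblast markers, 9 fell and none rose, with a summed signal of 26315 to 30141 at 10 weeks and 51097 to 57489 at 5 weeks. Of 8 endothelial markers 7 fell (4920 to 5987 at 10 weeks, 8552 to 9901 at 5 weeks), and of 7 adipocyte markers 4 fell (39888 to 51813 at 10 weeks, 57066 to 68311 at 5 weeks). Of 6 pericyte markers 3 fell, among them Des, also a muscle gene, and none rose (6428 to 8190 at 10 weeks, 11144 to 13846 at 5 weeks). Of 4 Schwann cell markers 3 fell and 1 rose (10202 to 11697 at 10 weeks, 12988 to 15582 at 5 weeks). S100b (-1.57), Mbp (-1.78) and Pmp22 (-1.48) fell, while Sox10 (1.62) rose. Sox10 averaged 6800 at 10 weeks and 2186 at 5 weeks, so it narrows the gap between the sums. Luminal epithelial markers moved the other way, with 6 of 8 higher (55812 to 63932 at 10 weeks, 30304 to 38693 at 5 weeks), as did 5 of 8 myoepithelial markers, while 1 fell (26216 to 27256 at 10 weeks, 20452 to 22068 at 5 weeks). Skeletal muscle markers, of which 4 of 12 fell, had summed signals of 7212 to 59910 at 10 weeks and 76299 to 137436 at 5 weeks. Their median log2 difference was -2.14, and each of the 12 was lower in every 10-week pool than in any 5-week pool. Without 10-week pool 1, the pool with the least muscle signal, 22 collagen chains were lower and 2 higher. The remaining 10-week pools still had less muscle signal than any 5-week pool, so leaving out pool 1 cannot separate muscle from age. Of 6 skin keratinocyte markers 1 fell (755 to 941 at 10 weeks, 1099 to 1266 at 5 weeks), with Krt1, Ivl and Flg under the filter, and of 4 bone markers only Sp7 passed the filter and it was not called (228 to 294 at 10 weeks, 154 to 280 at 5 weeks). The part of these cell types in the collagen differences was not tested.

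Promoter sequences were available for 33 of the 42 genes, as 36 windows of 250 bases before and 50 after a transcription start, from RefSeq on GRCm38.p6. They were searched on both strands for the CCAAT box (letters CCAAT), the TATA box (letters TATAAA) and the GC box (letters GGGCGG), and no matches of different motifs shared bases. CCAAT was present in 13 of the 36 windows (36.1%), against 37.4% of all 32851 windows, TATAAA in 5 (13.9% against 13.6%) and GGGCGG in 22 (61.1% against 35.7%). The windows shown are those of Col18a1, the chain that fell most, Col9a1, the chain that rose most, Col4a1 and Col4a2, neighbours that fell together, and Col1a2, a chain of the main fibre-forming collagen. Capitals mark the matches, and sequences run 5′ to 3′ on the strand of the gene.
Col18a1, upstream start (chr10:77166481-77166780, minus strand): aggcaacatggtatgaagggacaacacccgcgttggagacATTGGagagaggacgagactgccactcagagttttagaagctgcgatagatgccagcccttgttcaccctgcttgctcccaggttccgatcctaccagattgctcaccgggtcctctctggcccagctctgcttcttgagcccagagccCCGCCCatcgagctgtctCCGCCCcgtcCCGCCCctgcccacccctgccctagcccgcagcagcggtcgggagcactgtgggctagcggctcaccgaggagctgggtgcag
Col18a1, downstream start (chr10:77113656-77113955, minus strand): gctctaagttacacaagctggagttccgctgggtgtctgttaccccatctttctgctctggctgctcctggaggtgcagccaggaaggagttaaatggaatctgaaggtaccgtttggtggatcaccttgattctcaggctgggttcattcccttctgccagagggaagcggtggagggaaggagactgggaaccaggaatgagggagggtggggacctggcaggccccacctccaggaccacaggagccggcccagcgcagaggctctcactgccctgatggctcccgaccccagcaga
Col9a1, upstream start (chr1:24177360-24177659, plus strand): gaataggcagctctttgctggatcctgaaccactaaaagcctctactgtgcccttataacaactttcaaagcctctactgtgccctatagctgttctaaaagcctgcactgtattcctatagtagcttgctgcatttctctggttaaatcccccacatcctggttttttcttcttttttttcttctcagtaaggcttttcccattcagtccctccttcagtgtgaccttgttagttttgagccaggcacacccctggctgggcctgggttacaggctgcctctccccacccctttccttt
Col9a1, downstream start (chr1:24194953-24195252, plus strand): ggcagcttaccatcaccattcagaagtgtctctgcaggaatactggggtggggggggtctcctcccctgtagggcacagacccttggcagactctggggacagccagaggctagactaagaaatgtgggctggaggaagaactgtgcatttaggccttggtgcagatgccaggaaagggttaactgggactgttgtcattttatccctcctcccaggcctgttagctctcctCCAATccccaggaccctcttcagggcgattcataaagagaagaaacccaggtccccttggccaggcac
Col4a1 (chr8:11312777-11313076, minus strand): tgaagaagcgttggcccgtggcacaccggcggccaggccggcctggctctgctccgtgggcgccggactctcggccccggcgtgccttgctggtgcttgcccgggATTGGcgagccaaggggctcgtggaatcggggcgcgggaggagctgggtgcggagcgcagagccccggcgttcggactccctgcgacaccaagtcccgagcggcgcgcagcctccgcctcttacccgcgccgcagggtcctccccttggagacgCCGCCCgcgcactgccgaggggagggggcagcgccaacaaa
Col4a2 (chr8:11312555-11312854, plus strand): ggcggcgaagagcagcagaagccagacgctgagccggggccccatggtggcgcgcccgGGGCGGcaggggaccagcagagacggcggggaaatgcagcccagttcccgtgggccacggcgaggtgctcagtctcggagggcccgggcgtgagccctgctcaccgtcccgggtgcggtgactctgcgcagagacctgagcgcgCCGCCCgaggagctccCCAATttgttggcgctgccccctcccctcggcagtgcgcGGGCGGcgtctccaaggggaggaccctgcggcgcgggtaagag
Col1a2 (chr6:4505368-4505667, plus strand): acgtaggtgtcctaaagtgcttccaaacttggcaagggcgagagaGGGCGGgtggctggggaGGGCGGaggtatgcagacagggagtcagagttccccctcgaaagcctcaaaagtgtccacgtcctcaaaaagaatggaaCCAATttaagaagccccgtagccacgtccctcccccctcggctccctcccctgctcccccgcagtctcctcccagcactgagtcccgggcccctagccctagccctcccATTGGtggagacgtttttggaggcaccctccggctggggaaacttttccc
The Col4a1 and Col4a2 windows overlap by 78 bases and run in opposite directions, since the genes lie head to head. Neither Col9a1 window holds GGGCGG, and the downstream one has CCAAT 18 bases before the start. Col18a1 has 3 GGGCGG matches at its upstream start and no match of any of these motifs at its downstream start. Col1a2 has CCAAT 109 bases before its start. Which start gave the RNA cannot be read from the probe sets used here.

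Among the 11 fibrillar chains, 8 passed the filter, 7 fell and none rose, with a median log2 difference of -0.99. The shares over all genes tested were 18.7% lower and 15.3% higher. Col1a1 and Col1a2 encode the chains of type I collagen, the main collagen of stromal fibres. Col1a1 had signals of 5908.6, 6800.7 and 6392.3 in the 10-week pools, against 13983.2, 14512.6 and 11425.5 in the 5-week pools. Every 10-week pool lay below every 5-week pool, a log2 difference of -1.05 ± 0.11 (SE, adjusted p = 2.73e-04). Col1a2 had 9358.5, 11261.3 and 10323.3 at 10 weeks and 16860.7, 17685.1 and 14003.8 at 5 weeks, again without overlap (-0.65 ± 0.11, adjusted p = 0.00312). The Col1a1 result depended on the probe set. A dimmer one gave 2537.0, 2883.8 and 2661.9 at 10 weeks and 3357.2, 2879.8 and 2304.7 at 5 weeks, overlapping values with a log2 difference of -0.06 ± 0.14 (adjusted p = 0.766), and the 2 probe sets averaged gave -0.56.

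Type III collagen, made of Col3a1 chains alone, is laid down with type I in loose and growing connective tissue. The brightest Col3a1 probe set read 15144.2, 14984.5 and 16743.5 at 10 weeks and 19161.7, 19437.6 and 15339.6 at 5 weeks, and the ages overlapped (-0.20 ± 0.11, adjusted p = 0.209). In 5-week pools 1 and 3 these were the highest values on the whole array, so the probe set stood at the top of the signal range. The difference passed without 5-week pool 3 (-0.31, adjusted p = 0.0359), with quantile normalization (-0.40, adjusted p = 0.00155) and with the probe sets averaged (-0.64, adjusted p = 0.00586). A dimmer Col3a1 probe set had signals of 2758.3, 4152.7 and 3853.3 at 10 weeks and 8819.7, 6952.2 and 6868.1 at 5 weeks, with no overlap and a log2 difference of -1.08 ± 0.16 (adjusted p = 0.0016).

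Type V collagen regulates how thick the type I fibrils grow, and its 3 chains fell the most among the fibrillar genes tested. Col5a2 had signals of 2677.3, 3526.4 and 3633.4 at 10 weeks, against 9973.1, 8823.2 and 8535.5 at 5 weeks, a log2 difference of -1.47 ± 0.13 (adjusted p = 1.27e-04). Its second probe set fell by 2.11 on the log2 scale. Col5a1 had 1797.0, 2015.9 and 2424.6 at 10 weeks and 5781.0, 4548.5 and 5277.9 at 5 weeks (-1.31 ± 0.13, adjusted p = 2.47e-04). All 3 Col5a1 probe sets fell, by 1.31 to 1.61. Col5a3 had 1376.0, 2569.1 and 1764.3 at 10 weeks, a wider spread than the other chains of this type, and 4905.1, 3805.6 and 4900.6 at 5 weeks (-1.28 ± 0.21, adjusted p = 0.0023). Pools of the ages did not overlap for any of these genes.

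Col27a1, a fibrillar chain known from cartilage, had 515.4, 685.7 and 682.9 at 10 weeks and 1260.0, 992.5 and 1141.9 at 5 weeks (-0.82 ± 0.15, adjusted p = 0.00383). Col11a1, which nucleates fibrils with type II collagen in cartilage and with type V elsewhere, had 96.5, 150.3 and 142.8 at 10 weeks and 254.2, 232.2 and 331.7 at 5 weeks (-0.92 ± 0.20, adjusted p = 0.00993). Both fell without overlap of the ages. A second Col11a1 probe set, under the filter, gave -1.39 (adjusted p = 0.00641 with no filter). Col2a1, Col11a2 and Col24a1 did not pass the filter. Col2a1, the main cartilage collagen, read 31.3, 85.1 and 31.3 at 10 weeks and 239.5, 156.7 and 195.8 at 5 weeks, and was called with no filter (-1.55, adjusted p = 0.0105). Its difference was -1.0 with an offset of 100 in place of 32. Col24a1 averaged 14.3 ± 16.5 at 10 weeks, against 45.2 ± 10.5 at 5 weeks (SD, n = 3 each). Col11a2 averaged 111 ± 2.78 at 10 weeks, against 79.4 ± 32.3 at 5 weeks (SD, n = 3 each), and the difference, 0.41, was 0.14 without 5-week pool 3.

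**Figure D2:**
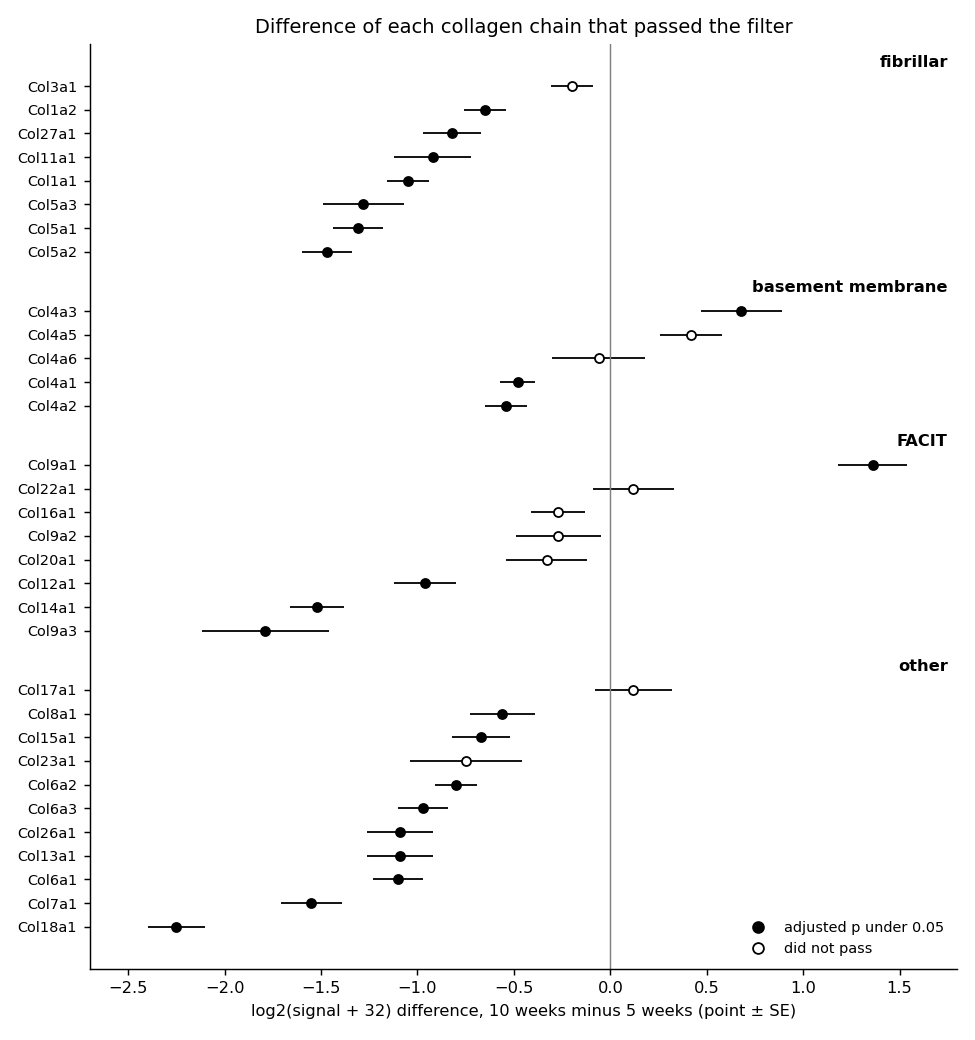
Log2(signal + 32) difference, 10 weeks minus 5 weeks, of the 32 collagen genes that passed the filter, by type, with standard errors. Filled points passed an adjusted p of 0.05: 7 fibrillar, 2 basement membrane, 3 FACIT and 9 other chains are lower, and Col9a1 and Col4a3 higher.

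Of the 6 collagen IV genes, 5 passed the filter, 2 fell and 1 rose, against 18.7% and 15.3% of all genes tested. The median of the 5 was -0.06. Col4a1 and Col4a2 together make the collagen IV found in nearly every basement membrane. Col4a1 had signals of 7147.3, 7492.7 and 8669.7 at 10 weeks, against 10464.6, 11141.1 and 10804.0 at 5 weeks (-0.48 ± 0.09, adjusted p = 0.00584). For Col4a2 they were 3708.2, 4747.6 and 4520.1 at 10 weeks and 6067.9, 6135.2 and 6666.2 at 5 weeks (-0.54 ± 0.11, adjusted p = 0.00662). Both fell with no overlap of the ages, and a second Col4a1 probe set gave -0.49.

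The other chains of collagen IV are restricted to certain basement membranes. Col4a3, which joins Col4a4 and Col4a5 in the kidney glomerulus, rose, with 222.5, 335.9 and 306.9 at 10 weeks and 142.1, 216.3 and 147.6 at 5 weeks (0.68 ± 0.21, adjusted p = 0.0388). The ages were only just apart, and the call was lost with no filter (adjusted p = 0.0747) and without 10-week pool 2 (0.122), 10-week pool 3 (0.108), 5-week pool 1 (0.112) or 5-week pool 3 (0.105). Its neighbour Col4a4 did not pass the filter, with 90.5, 65.5 and 72.3 at 10 weeks and 29.7, 47.4 and 49.5 at 5 weeks. The other Col4a4 probe sets, also under the filter, overlapped between the ages (-0.33 and -0.14). Col4a5 had 2005.6, 1730.8 and 1998.5 at 10 weeks and 1485.6, 1095.3 and 1743.3 at 5 weeks, overlapping values that did not pass (0.42 ± 0.16, adjusted p = 0.0859) except without 5-week pool 3 (0.57, adjusted p = 0.0328). Without 5-week pool 2 the difference was 0.24. Col4a6, the partner of Col4a5 under smooth muscle and skin epithelium, had 713.2, 370.9 and 630.0 at 10 weeks and 650.0, 444.7 and 657.5 at 5 weeks (-0.06 ± 0.24, adjusted p = 0.883), and its sign turned under quantile normalization and without 10-week pool 2, 5-week pool 1 or 5-week pool 3 (0.01 to 0.21).

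Of 9 FACIT genes, 8 passed the filter, 3 fell and 1 rose, against 18.7% and 15.3% of all genes tested. Col14a1, an organiser of fibrils in skin and tendon, had signals of 1148.3, 1261.0 and 1046.2 at 10 weeks, against 3682.3, 2784.7 and 3688.9 at 5 weeks (-1.52 ± 0.14, adjusted p = 1.35e-04), and a second probe set gave -1.66. Col12a1, which binds fibrils in tissues under load, had 218.1, 207.8 and 244.6 at 10 weeks and 537.0, 388.7 and 477.2 at 5 weeks (-0.96 ± 0.16, adjusted p = 0.00247). Neither overlapped between the ages. Col16a1 averaged 1785 ± 112 at 10 weeks, against 2174 ± 409 at 5 weeks (SD, n = 3 each), which missed the threshold although the ages did not overlap (-0.27 ± 0.14, adjusted p = 0.18), and the difference was -0.12 without 5-week pool 1. Col20a1 (-0.33, adjusted p = 0.264) and Col22a1 (0.12, adjusted p = 0.712) lay near the filter and did not pass either, and Col20a1 was at -0.15 without 10-week pool 2. Col19a1, the neighbour of Col9a1 on chromosome 1, did not pass the filter, with 91.7 ± 7.54 at 10 weeks, against 79.9 ± 13.7 at 5 weeks (SD, n = 3 each).

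The chains of type IX collagen, known from cartilage, where Col9a1, Col9a2 and Col9a3 assemble into 1 molecule, had calls in both directions. Col9a1 rose, with signals of 8969.5, 6653.2 and 8506.3 at 10 weeks and 4047.1, 2502.4 and 2925.8 at 5 weeks. The lowest 10-week pool lay above the highest 5-week pool, and the log2 difference was 1.36 ± 0.18 (adjusted p = 8.25e-04). A second Col9a1 probe set had 2504.7, 2574.2 and 2736.3 at 10 weeks and 1381.7, 1055.8 and 1061.0 at 5 weeks (1.15 ± 0.13, adjusted p = 3.24e-04). Both probe sets thus rose with no overlap. Col9a2 stayed near the filter with 90.6, 68.5 and 131.9 at 10 weeks and 113.3, 118.8 and 129.1 at 5 weeks (-0.27 ± 0.22, adjusted p = 0.387), with -0.10 without 10-week pool 2. Col9a3 had 106.1, 156.4 and 34.9 at 10 weeks and 393.9, 381.2 and 375.3 at 5 weeks (-1.79 ± 0.33, adjusted p = 0.00423). Its second probe set, at 85.8, 99.1 and 122.5 in the 10-week pools against 138.6, 120.5 and 235.8 in the 5-week pools, overlapped and did not pass (-0.52 ± 0.24, adjusted p = 0.145), and the 2 averaged gave -1.15.

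Cartilage markers were at or near the filter. Of 7 on the array, Acan, Matn1, Hapln1, Cnmd and Snorc did not pass it, Comp was not called (0.12), and Matn3 was called higher (0.69, adjusted p = 0.0445). Matn3 passed the filter only through the 10-week pools and was not called with no filter (adjusted p = 0.09). Over the 7 genes the summed signal was 516 to 569 at 10 weeks and 623 to 763 at 5 weeks. Cnmd, which encodes the cartilage protein chondromodulin, had 45.1, 16.7 and 44.8 at 10 weeks and 204.3, 189.6 and 251.7 at 5 weeks. Snorc, a cartilage proteoglycan gene, had 29.3, 38.6 and 63.2 at 10 weeks and 87.0, 151.1 and 199.0 at 5 weeks. Acan (0.27), Hapln1 (0.18) and Matn1 (0.03), genes of the cartilage matrix, had log2 differences above 0 with overlapping ages. They were not called with no filter (adjusted p = 0.432 to 0.935). With no filter, Cnmd (-1.90, adjusted p = 0.00213) and Snorc (-1.20, adjusted p = 0.0298) were called lower, and no cartilage marker was called higher. Among chains known from cartilage, the brightest probe sets of Col2a1, Col9a3, Col11a1 and Col27a1 lay lower in each 10-week than any 5-week pool. Those of Col9a1 and Col11a2 lay higher, though Col11a2 was not called with no filter (adjusted p = 0.348). Those of Col9a2 and Col10a1 overlapped. Whether cartilage RNA had a part in these values was not tested.

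Among the 16 other chains, 11 passed the filter, 9 fell and none rose, against 18.7% and 15.3% of all genes tested. Their median was -0.97. The largest decrease of any collagen gene tested was that of Col18a1, a basement membrane collagen whose cleaved end is the angiogenesis inhibitor endostatin. Its signals were 817.7, 681.5 and 864.7 at 10 weeks, against 3381.0, 3604.0 and 4693.8 at 5 weeks, 4.94-fold lower as a ratio of mean signals (-2.25 ± 0.15, adjusted p = 4.41e-05). A second Col18a1 probe set gave 627.8, 672.2 and 864.4 at 10 weeks and 3026.4, 3027.8 and 3192.5 at 5 weeks (-2.06). The highest 10-week value was far below the lowest 5-week value on both. Col15a1, its closest relative, had 1704.5, 2437.1 and 1654.4 at 10 weeks and 2823.1, 3051.0 and 3265.3 at 5 weeks, a smaller difference without overlap (-0.67 ± 0.15, adjusted p = 0.0111).

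Type VI collagen forms beaded filaments around fibroblasts, muscle fibres and fat cells. Col6a1 had signals of 3153.7, 4331.4 and 4256.8 at 10 weeks and 9018.6, 7779.1 and 8327.2 at 5 weeks (-1.10 ± 0.13, adjusted p = 4.92e-04). Col6a2 had 4586.1, 5827.7 and 4919.2 at 10 weeks and 9642.8, 8067.6 and 8924.4 at 5 weeks (-0.80 ± 0.11, adjusted p = 0.00118). Col6a3 had 3264.8, 4687.0 and 3663.5 at 10 weeks and 8051.0, 7077.1 and 7525.1 at 5 weeks (-0.97 ± 0.13, adjusted p = 9.75e-04). All 3 fell without overlap, and 10-week pool 1 was the lowest for each of them. Col6a4 and Col6a5 did not pass the filter and overlapped between the ages, with means of 115 ± 37.3 and 29.8 ± 22.1 at 10 weeks, against 77.7 ± 12.4 and 32.3 ± 5.23 at 5 weeks (SD, n = 3 each).

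Col7a1 forms the anchoring fibrils that tie epithelium to the stroma below it. It fell, with 255.5, 203.3 and 258.1 at 10 weeks and 916.5, 707.2 and 666.0 at 5 weeks (-1.55 ± 0.16, adjusted p = 2.90e-04). Col17a1, a transmembrane collagen of hemidesmosomes at the same junction, had 306.8, 216.1 and 262.0 at 10 weeks and 250.4, 183.9 and 284.3 at 5 weeks, and did not pass (0.12 ± 0.20, adjusted p = 0.687). Col13a1, another transmembrane chain, fell, with 110.1, 142.8 and 146.6 at 10 weeks and 320.6, 280.5 and 353.0 at 5 weeks (-1.09 ± 0.17, adjusted p = 0.00179).

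Col23a1, also a transmembrane chain, had 138.7, 257.4 and 143.1 at 10 weeks and 282.8, 474.6 and 224.4 at 5 weeks. The ages overlapped and it did not pass (-0.75 ± 0.29, adjusted p = 0.0863), except without 10-week pool 2 (-0.99, adjusted p = 0.0413), and it was at -0.47 without 5-week pool 2. A second Col23a1 probe set did not overlap, with a highest signal of 97.7 at 10 weeks and a lowest of 254.3 at 5 weeks (-1.70 ± 0.23, adjusted p = 9.01e-04), and the tested probe sets averaged gave -1.22 (adjusted p = 0.00825). The dimmest Col23a1 probe set, under the filter, averaged 10.6 ± 2.36 at 10 weeks, against 180 ± 39 at 5 weeks (SD, n = 3 each; -2.30, adjusted p = 5.22e-04 with no filter). Col26a1 had 51.6, 68.0 and 65.0 at 10 weeks and 162.7, 167.2 and 169.1 at 5 weeks (-1.09 ± 0.17, adjusted p = 0.00204), and -0.72 with an offset of 100. It fell under the filter, and so was not tested, when any 1 of the 5-week pools was left out.

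Col8a1, a network collagen of vessel walls and the eye, had 279.0, 260.6 and 198.1 at 10 weeks and 328.7, 405.2 and 394.4 at 5 weeks (-0.56 ± 0.17, adjusted p = 0.0348). This call was lost with no filter (adjusted p = 0.0596), with quantile normalization (0.0572) and without 10-week pool 2 (0.0619), 10-week pool 3 (0.107), 5-week pool 2 (0.0941) or 5-week pool 3 (0.089). A dimmer Col8a1 probe set, at 122.3, 70.9 and 138.6 in 10-week pools and 289.0, 313.6 and 510.3 in 5-week pools, gave -1.49 ± 0.26 (adjusted p = 0.00321), and the probe sets averaged gave -1.03. Its partner Col8a2 did not pass the filter, with 60.7 ± 11.2 at 10 weeks, against 129 ± 8.94 at 5 weeks (SD, n = 3 each), and was called lower with no filter (-0.80, adjusted p = 0.0276). Col10a1, the collagen of hypertrophic cartilage, had signals of 8.4 to 12.6 at 10 weeks and 10.5 to 15.8 at 5 weeks, under the filter. Col25a1, a transmembrane chain known from neurons, was also under the filter, at 169.0, 75.4 and 117.6 in 10-week pools and 41.8, 72.3 and 61.8 in 5-week pools. A second Col25a1 probe set, under the filter too, overlapped between the ages (-0.14).

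Several probe sets of a gene gave a check on the choice of the brightest, drawn from the same pools. Of the 82 probe sets, 52 passed the filter, 34 fell and 3 rose, where 15.3% and 13.4% of all 27022 probe sets tested did so. These counts include the brightest probe set of each gene, of which 32 were tested, 21 fell and 2 rose. Of 18 genes with at least 2 tested probe sets, 10 had all of them called in 1 direction, 3 had none called, 5 had some called and some not, and 0 had calls in both directions. The 5 were Col1a1, Col1a2, Col3a1, Col9a3 and Col23a1. Of these, the called probe sets of Col9a3 and Col23a1 passed the filter only through the 5-week pools. In 12 of the 18, the second brightest probe set had the lower log2 difference of the 2.

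**Figure D3:**
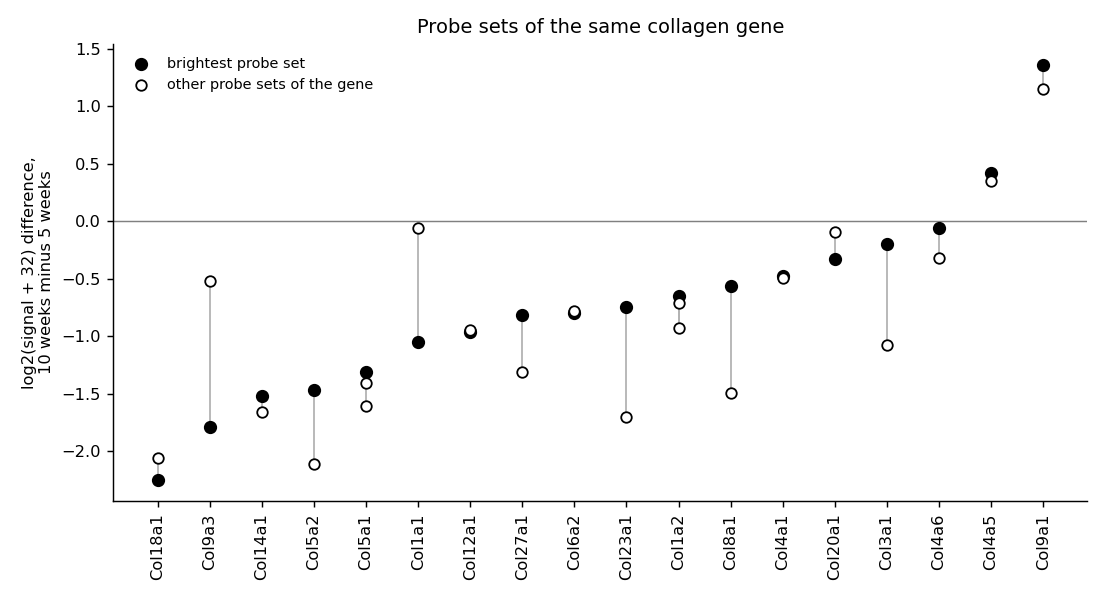
Log2(signal + 32) difference, 10 weeks minus 5 weeks, of every tested probe set of the 18 collagen genes that had at least 2. Filled points are the brightest probe set and open points the others of the same gene. Col18a1 lies at -2.25 and -2.06 and Col9a1 at 1.36 and 1.15, while Col1a1 lies at -1.05 and -0.06 and Col3a1 at -0.20 and -1.08.

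Chains of 1 trimer or gene pair were compared within each pool, for 10 pairs. The difference between 2 chains in log2(signal + 32) was taken in every pool and its 10-week and 5-week values were tested by an exact two-sided permutation test, whose smallest possible p with 3 against 3 pools is 0.1. Probe sets differ in brightness, so only the shift of a pair between the ages is read, not its level. No pair could therefore pass, and 5 of the 10 pairs had no overlap between the ages (exact p = 0.1 for each, 0.2 adjusted over the 10). Among all pairs of genes on the array 43.4% were apart in this way, so the count of 5 is near that share. Col1a1 minus Col1a2 was -0.69 ± 0.03 at 10 weeks and -0.28 ± 0.01 at 5 weeks (SD, n = 3), so the Col1a1 probe set was lower relative to Col1a2 by 0.41 on the log2 scale at 10 weeks. With the dimmer probe sets the order was the other way, since that of Col1a1 gave -0.06 and the second of Col1a2 gave -0.93. Col6a1 minus Col6a2 was -0.39 ± 0.17 at 10 weeks and -0.08 ± 0.03 at 5 weeks, and Col4a5 minus Col4a6 was 1.73 ± 0.35 at 10 weeks and 1.25 ± 0.11 at 5 weeks (SD, n = 3). The shift of 0.48 for Col4a5 minus Col4a6 was 0.28 without 10-week pool 2.

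Type IX had the widest shift of the 10 pairs, with Col9a1 minus Col9a2 at 5.99 ± 0.25 at 10 weeks and 4.36 ± 0.40 at 5 weeks (SD, n = 3), a change of 1.63. Col9a2 lay near the filter, with a mean under it at 1 of the ages, and Col9a1 alone rose by 1.36. Col11a1 minus Col11a2, of which Col11a2 did not pass the filter, was 0.16 ± 0.26 at 10 weeks and 1.48 ± 0.70 at 5 weeks (SD, n = 3). The pairs whose ages overlapped were Col4a1 minus Col4a2 (0.84 ± 0.16 at 10 weeks, 0.78 ± 0.08 at 5 weeks; exact p = 0.6, SD, n = 3), Col5a1 minus Col5a2 (exact p = 0.3), Col6a1 minus Col6a3 (exact p = 0.4), Col4a3 minus Col4a4 (exact p = 0.7) and Col8a1 minus Col8a2 (exact p = 0.4). Among protein-coding genes, 7 pairs of collagen genes are neighbours, and of these Col4a1 with Col4a2 and Col6a1 with Col6a2 had both chains lower.

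**Figure D4:**
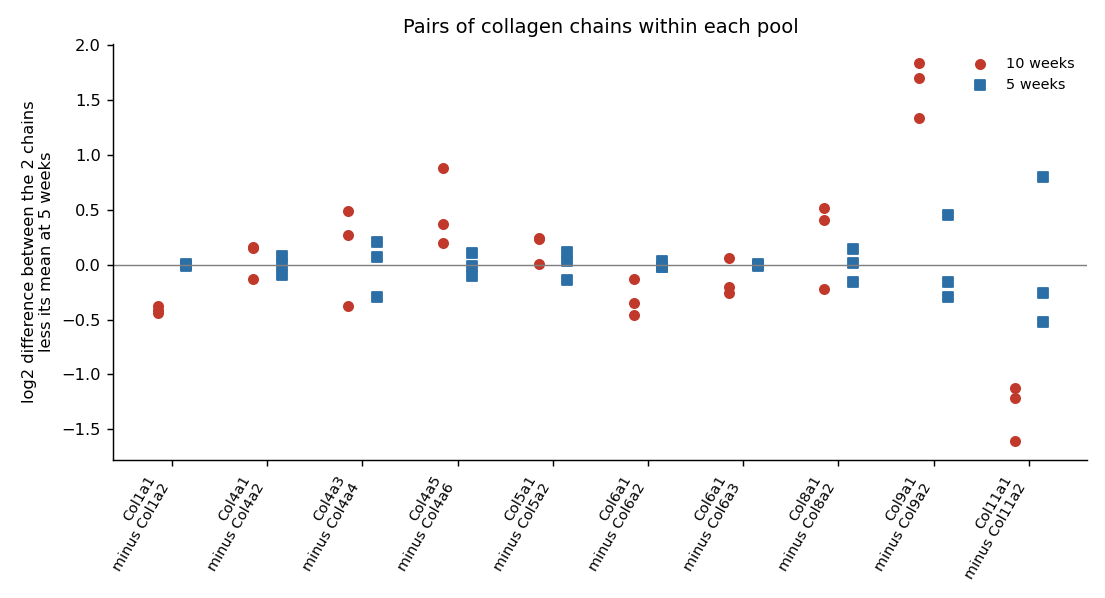
Log2 difference between the 2 chains of each of 10 pairs within every pool, less the pair's mean at 5 weeks, with circles for 10 weeks and squares for 5 weeks. In 5 pairs the ages do not overlap, against 43.4% of all gene pairs, and the widest shift is that of Col9a1 minus Col9a2, 1.63 upward.

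Genes that make, process and bind collagen were examined beside the chains. Their lists were chosen with earlier results of these data known, so the counts are a description and not a test. New chains are hydroxylated and folded in the endoplasmic reticulum. Of 24 tested genes of collagen making and export, 12 fell and 6 rose, against 18.7% and 15.3% of all genes tested. Their median was -0.56. P4ha3, a further prolyl 4-hydroxylase subunit and 1 of those that fell, passed the filter only through the 5-week pools (-1.25). Plod2, the lysyl hydroxylase that prepares collagen ends for crosslinking, had signals of 557.5, 517.0 and 675.2 at 10 weeks and 3256.9, 2907.1 and 2112.7 at 5 weeks (-2.17 ± 0.17, adjusted p = 8.15e-05). P4ha1, a catalytic subunit of prolyl 4-hydroxylase, fell by 1.71 and Crtap, a part of the prolyl 3-hydroxylation complex, fell by 0.96. P3h2, a prolyl 3-hydroxylase known to act on collagen IV, rose, averaging 1230 ± 240 at 10 weeks, against 543 ± 67.3 at 5 weeks (SD, n = 3 each), with no overlap (1.12 ± 0.16, adjusted p = 0.00119).

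Outside the cell, propeptides are cut off and fibrils are crosslinked. Beside the counts of these genes, 18.7% of all genes tested were called lower and 15.3% higher. Of 5 tested genes of propeptide removal, 3 fell and none rose (median -1.11), namely Pcolce (-1.11), Bmp1 (-1.12) and Pcolce2 (-1.43), the procollagen C-proteinase and its enhancers. Of 6 crosslinking genes, 5 fell and none rose (median -0.63). The lysyl oxidase-like enzyme gene Loxl1 had 2417.0, 2712.3 and 2807.1 at 10 weeks and 8377.3, 7517.0 and 7966.9 at 5 weeks (-1.58 ± 0.09, adjusted p = 3.69e-05). Tgm2, a transglutaminase, fell by 0.73 (1.20 with its probe sets averaged), and Pxdn, the peroxidase that crosslinks collagen IV, fell by 0.56.

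Of 11 receptors and uptake genes, 5 fell and 1 rose, against 18.7% and 15.3% of all genes tested, and the median was 0.12. Mrc2, an endocytic collagen receptor of fibroblasts, fell by 1.57, and Mrc1, a macrophage mannose receptor, fell by 1.10. The discoidin domain receptors moved apart: Ddr2, of mesenchymal cells, had 517.3, 438.8 and 602.7 at 10 weeks and 1987.7, 1498.6 and 1549.9 at 5 weeks (-1.63 ± 0.16, adjusted p = 1.81e-04), while Ddr1, of epithelial cells, had 2845.9, 2597.0 and 2480.0 at 10 weeks and 1497.3, 1166.5 and 1728.0 at 5 weeks (0.85 ± 0.15, adjusted p = 0.00282). Of 6 tested collagen-cutting proteases, 4 fell and none rose (median -0.93). The collagenase genes Mmp13 and Mmp1a did not pass the filter and lay higher in each 10-week pool than in any 5-week pool. Mmp13 averaged 63 ± 12.2 at 10 weeks, against 16.5 ± 3.1 at 5 weeks (SD, n = 3 each), and was called higher with no filter (0.96, adjusted p = 0.00786), while Mmp1a was not (0.58, adjusted p = 0.11). Mmp14, a membrane-bound collagenase, fell by 1.71, the gelatinase gene Mmp2 fell by 1.12 and Fap, a fibroblast surface protease gene, fell by 1.47.

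Of 14 basement membrane partners, 8 fell and 1 rose, against 18.7% and 15.3% of all genes tested, with a median of -0.54. Lama4, a laminin chain of vessels and muscle, fell by 1.06, Nid1, which links laminin to collagen IV, fell by 0.89 and the laminin chain gene Lamc1 fell by 0.88. Lamb3, a chain of the laminin that epithelium lays down at hemidesmosomes, rose, with 3020.6, 2925.6 and 2781.3 at 10 weeks and 907.2, 651.6 and 679.1 at 5 weeks (1.93 ± 0.14, adjusted p = 5.08e-05).

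**Figure D5:**
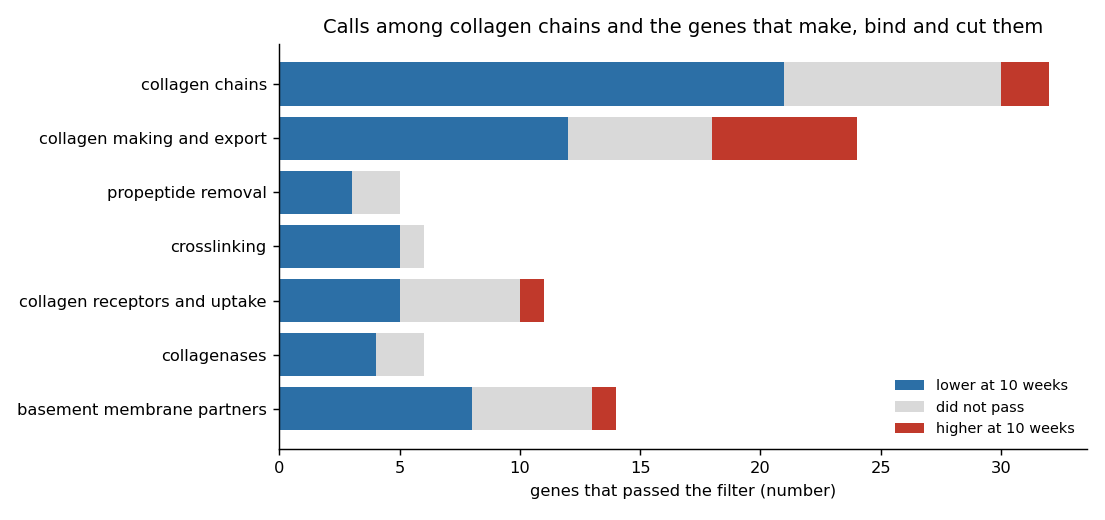
Number of tested genes called lower, not passing and called higher at 10 weeks among the collagen chains and 6 lists of genes that make, process, bind or cut them. The chains had 21 lower and 2 higher of 32, and collagen making and export 12 lower and 6 higher of 24. Of all genes tested, 18.7% were lower and 15.3% higher. The lists were chosen with earlier results of these data known.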

How the data were processed

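Total RNA of mammary gland was hybridised to 6 arrays of 45101 probe sets, 3 per age, each a pool of 3 animals. The authors deposited linear signal intensity values for each probe set, apparently scaled to a common trimmed mean on every array, and no source used here names the software. Medians were 156.4 to 172.5 per array, and precision is limited by having so few arrays. Replicate numbers follow accession order and pair no pools. Pools of an age held different animals, so the spread between them includes animals and arrays.

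Without 64 controls, 45037 probe sets remained. Values under 1 were set to 1, log2(value + 32) was taken, which understates differences of dim genes, and the 40% with the lowest mean (a signal of about 103) were left out, leaving 27022. Array medians lay within 0.118, so no normalization was added. limma 3.58.1 in R 4.3.3 (lmFit, eBayes with trend, 4 residual degrees of freedom, two-sided) was adjusted by Benjamini-Hochberg over all 27022, and the fit was tested on simulated data. Gene symbols came from the platform annotation and were updated through RefSeq GRCm38.p6. Every collagen gene is described. From each list of genes around the chains, the text names the 3 most significant in its commoner direction. It also names the largest call in the opposite direction. P4ha3, Mmp13, Mmp1a and the cell type markers are named outside this rule. The chains and lists were chosen with earlier results of these data known. Plots used Python 3.11.15 and matplotlib 3.10.9.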

Additional observations from a re-analysis of the deposited data

How the results depend on the processing

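Other offsets, filters, normalizations and variance models, array weights and averaged probe sets were tried, and each pool was left out in turn. Lower collagen chains numbered 17 to 23 under these settings, and 19 to 22 with a pool left out. Chains called higher numbered 1 with no filter and 1 with a filter that removed 60% of probe sets, 2 with the other changed settings, and 1 to 2 with a pool left out. Over all probe sets, averaging those of a gene gave 2736 lower and 2317 higher calls, counted over merged features rather than single probe sets. Leaving out a pool gave 3153 to 3487 lower and 2508 to 3063 higher. The sign turned for Col4a6 under quantile normalization (0.01) and with a pool left out (-0.23 to 0.21), for Col17a1 without 5-week pool 2 (-0.04, with 0.24 the highest over the pools) and for Col22a1 without 10-week pool 3 (0.00, with 0.28 the highest over the pools). None of these genes was called, and the cause was not tested. For the pairs of chains, offsets and left-out pools were added after the data were seen. Among these, only Col4a3 minus Col4a4 turned, to -0.08 with an offset of 1, and with a pool left out it ran from -0.05 to 0.38. No paired analysis was possible because the labels give no numbers that pair pools of the ages. For the 10 collagen genes under the filter, signal limits what can be read, and the offset of 32 compresses their differences.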
